A study of Mus musculus with 24 samples.

Results

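Foxl1, Foxf1 and Foxf2 are 3 forkhead transcription factors of the gut mesenchyme, and their RNA was followed across 24 arrays of sorted mouse colon fibroblasts. They were taken by symbol, each as the brightest transcript cluster annotated to exactly that gene, and are 3 of the 30819 named genes on the array. Each had 1 cluster. The cells had been sorted as gp38-positive (gp38 is podoplanin, Pdpn) and negative for Epcam, CD31 and CD45, and came from induced mice carrying Villincre-ERT2 and ZsGreen. All 3 genotypes carried this transgene: WT (IhhWT-ApcWT, 7 arrays), ApcKO (IhhWT-ApcKO, 8 arrays) and IhhKO_ApcKO (IhhKO-ApcKO, 9 arrays). The Villin promoter drives Cre in the gut epithelium, so the fibroblasts themselves are not the cells in which the genes were deleted. The age of the mice, the inducing agent and the time after induction are not in the labels. The labels do not say that each array is a separate mouse, so p-values measure the spread between these samples, which may be technical.

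Forkhead factors bind DNA through a winged-helix domain. In the gut, Indian hedgehog (Ihh) leaves the epithelium and acts on mesenchymal cells, where Patched releases Smoothened and the Gli factors switch on target genes. In the developing mouse gut Foxf1 and Foxl1 are among the genes that respond to this signal. Foxl1 marks subepithelial fibroblasts with long processes, often called telocytes, that supply Wnt and BMP signals to the crypt, and mice without it have overgrown crypts. Foxf1 and its close relative Foxf2 are broader mesenchymal factors, and in mouse intestine Foxf2 limits Wnt signalling in part through the secreted inhibitor Sfrp1.

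The members sit in a pair of forkhead clusters. In RefSeq gene order on mouse chromosome 8, Foxf1 is followed by Mthfsd, Foxc2 and Foxl1, and is preceded by Fendrr, a long noncoding RNA transcribed away from it. On chromosome 13, Foxf2 lies between Foxq1 and Foxc1. The RefSeq promoter table (GRCm38.p6) matched 1 of the 3 members, Foxf2. The 250 bases before the start are shown for Foxf2 (chr13:31625566-31625815, + strand) and for Fendrr (chr8:121083111-121083360, - strand), the gene beside Foxf1 that returns in the results. Capitals mark matches, on either strand, to the Gli core CCACCC or to the forkhead motif GTAAACA.
Foxf2: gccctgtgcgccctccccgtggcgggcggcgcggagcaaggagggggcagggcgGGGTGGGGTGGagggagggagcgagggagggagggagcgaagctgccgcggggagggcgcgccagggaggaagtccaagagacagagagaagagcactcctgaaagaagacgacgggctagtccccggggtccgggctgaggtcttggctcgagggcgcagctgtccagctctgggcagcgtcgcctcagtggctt
Fendrr: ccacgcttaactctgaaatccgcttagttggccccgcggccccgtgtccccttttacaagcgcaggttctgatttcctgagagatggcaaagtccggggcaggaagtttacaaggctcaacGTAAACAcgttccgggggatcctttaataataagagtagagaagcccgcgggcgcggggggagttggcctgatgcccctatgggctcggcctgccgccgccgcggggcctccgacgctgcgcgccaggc
The Foxf2 stretch held 2 overlapping copies of the Gli core on the opposite strand, starting 196 and 191 bases before the start, and no forkhead match. The Fendrr stretch held 1 forkhead match, 129 bases before the start, and no Gli core. Of 32851 promoters cut to the same 250 bases, 28.1% held the Gli core and 3.17% the forkhead motif. The median share of G and C letters was 52.4%. It was 71.6% in the Foxf2 stretch, higher than in 92.7% of promoters, and 62% in the Fendrr stretch, higher than in 76.7%. The motif shares were not matched for these letters. The longer Gli motif GACCACCCA, which contains the core, was in 0.225% of promoters and in neither stretch. A match describes the letters and does not show binding.

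Values are log2 values, so a difference of 1 is a doubling of signal. Foxl1 ranged from 6.15 to 6.91 over the 24 arrays, Foxf1 from 8.83 to 9.35 and Foxf2 from 8.27 to 9.12. Foxl1 gave a dim signal: it lay above the median of the negative control probe sets (4.65) but under their 95th percentile (8.09), while all arrays had Foxf1 and Foxf2 above that percentile. Among the 39 forkhead genes with a named cluster, the 5 brightest were Foxf1, Foxf2, Foxo1, Foxo3 and Foxp1, with means of 9.05, 8.64, 8.52, 8.18 and 7.87. Clusters differ in how well they bind, so this order is one of signal and not of RNA amount. In sorted bulk RNA, fewer cells that make a gene and less RNA per cell cannot be told apart.

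One double-knockout array, B9, went against its label in the Hedgehog targets. Gli1 was 7.99 on it, Ptch1 9.53 and Hhip 8.96, while the other 8 arrays of its group had 6.64 to 7.05, 7.67 to 8.52 and 7.33 to 8.14. The limma differences of the 3 members in the double knockout are therefore given with and without B9.

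Foxl1 values were lower on the arrays labelled IhhKO_ApcKO, although the limma difference passed against neither ApcKO nor WT. In WT the lowest, median and highest values were 6.39, 6.67 and 6.91, and in ApcKO they were 6.54, 6.77 and 6.86. In IhhKO_ApcKO they were 6.15, 6.34 and 6.58. The double-knockout arrays sat at the bottom of the range: 8 of 9 lay below every ApcKO array and 7 of 9 below every WT array, the exceptions being C9 at 6.58 against ApcKO, and C9 and B9 (6.53) against WT. Over all genes, 0.123% had at least 8 double-knockout arrays below every ApcKO array, and 0.714% had at least 7 below every WT array.

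**Figure D1:**
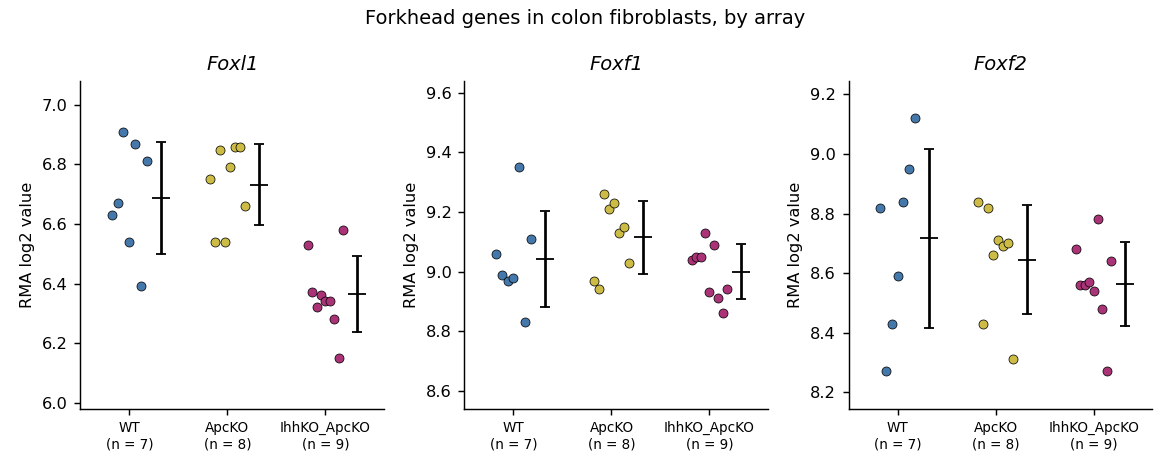
RMA log2 value (vertical axis) of Foxl1, Foxf1 and Foxf2 on each array (points) by genotype, with the group mean and SD beside the points. The IhhKO_ApcKO arrays of Foxl1 lie between 6.15 and 6.58, while the Foxf1 and Foxf2 arrays of the 3 genotypes overlap.

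The Foxl1 mean was 6.69 ± 0.19 for WT (SD, n = 7), 6.73 ± 0.14 for ApcKO (SD, n = 8) and 6.36 ± 0.13 for IhhKO_ApcKO (SD, n = 9). ApcKO and WT, the upper 2 levels, did not differ beyond their spread, with a log2 difference of 0.045 (SE 0.076, 95% interval -0.11 to 0.20, adjusted p = 0.978 with limma). Between ApcKO and WT limma called 0% of all genes (0 of 30819, with 4.41% at an unadjusted p under 0.05).

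The question of the next comparison was what epithelial Ihh loss adds to Apc loss. IhhKO_ApcKO minus ApcKO was -0.37 for Foxl1 (SE 0.072, 95% interval -0.52 to -0.22), a 1.29-fold lower signal, and all 9 double-knockout arrays lay below the ApcKO mean, as for 1.28% of all genes. It did not pass (adjusted p = 0.0510 with limma) and stood directly behind the genes that did: it had rank 15 by p, and 14 genes (0.0454%) passed. It passed without B9, the double-knockout array with Gli1 at 7.99 (difference -0.39, adjusted p = 0.0252), without C9 (-0.397, 0.0272), without B1 (-0.396, 0.0395) and without B3 (-0.396, 0.0436), and under 9 of 28 alternatives in all. The adjusted p ranged from 0.0049 to 0.822.

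Against WT the difference was -0.32 (SE 0.074, 95% interval -0.48 to -0.17, adjusted p = 0.108 with limma), again with all 9 arrays below the WT mean, as for 3.08% of all genes. Here 0.0811% of genes passed, and Foxl1 passed under 0 of 27 alternatives, and without B9 the difference was -0.345 (adjusted p = 0.0537). Both contrasts use the same 9 double-knockout arrays. These were then set against the mean of WT and ApcKO, which both keep Ihh. Foxl1 fell by 0.35 (SE 0.062, adjusted p = 0.0117 with limma) and passed, as did 0.227% of genes. WT differs from the double knockout in Apc too, and no genotype had Ihh deleted with Apc intact. This pooled comparison had been added in earlier work after the data were seen. It passed under 32 of 34 alternatives, all 24 single-array omissions among them, and without B9 the difference was -0.368 (adjusted p = 0.00598).

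The code letter of the arrays runs almost along with genotype: A marks WT, B marks ApcKO and C marks IhhKO_ApcKO, and only A9 (ApcKO) and B9 (IhhKO_ApcKO) cross. With the letter as a block, the Foxl1 difference was -0.20 against ApcKO (adjusted p = 0.822 with limma), -0.14 against WT and -0.17 against both (adjusted p = 0.796). These blocked values rest on A9 and B9, the array with Hedgehog targets near Ihh-intact levels.

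Foxf1 varied little. Its lowest, median and highest values were 8.83, 8.99 and 9.35 in WT, 8.94, 9.14 and 9.26 in ApcKO, and 8.86, 9.04 and 9.13 in IhhKO_ApcKO. The groups overlapped, although 8 of 9 double-knockout arrays lay below the ApcKO mean and 4 below every ApcKO array. The share of all genes with such counts was not taken, so they are description only. The means were 9.04 ± 0.16 (SD, n = 7), 9.11 ± 0.12 (SD, n = 8) and 8.999 ± 0.093 (SD, n = 9). No neighbours in this order differed beyond the test.

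The Foxf1 difference was -0.12 for IhhKO_ApcKO minus ApcKO (SE 0.062, 95% interval -0.24 to 0.012, adjusted p = 1.0 with limma), so a drop of up to 0.24 lies within the interval. It was -0.043 against WT (SE 0.064, interval -0.17 to 0.090), and ApcKO minus WT was 0.073 (SE 0.066, interval -0.063 to 0.21). Without B9 the Foxf1 difference was -0.121 against ApcKO and -0.0482 against WT. A missed threshold does not show equal levels.

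Within each genotype Foxf2 had the largest SD of the 3 members, above all in WT, while over all 24 arrays the SD was 0.21 for Foxf2 and 0.22 for Foxl1. Its lowest, median and highest values were 8.27, 8.82 and 9.12 in WT, 8.31, 8.69 and 8.84 in ApcKO, and 8.27, 8.56 and 8.78 in IhhKO_ApcKO. The groups shared most of their range, the highest array being one of WT and the lowest one of IhhKO_ApcKO. The means were 8.72 ± 0.30 (SD, n = 7), 8.64 ± 0.18 (SD, n = 8) and 8.56 ± 0.14 (SD, n = 9).

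The Foxf2 difference was -0.081 for IhhKO_ApcKO minus ApcKO (SE 0.098, 95% interval -0.28 to 0.12), -0.15 against WT (SE 0.10, interval -0.36 to 0.055) and -0.073 for ApcKO minus WT (SE 0.10, interval -0.29 to 0.14). None passed with limma, and the smallest adjusted p of the 3 was 0.788. Without B9 it was -0.0956 against ApcKO and -0.168 against WT. No neighbours in the order of Foxf2 levels differed beyond their spread.

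**Figure D2:**
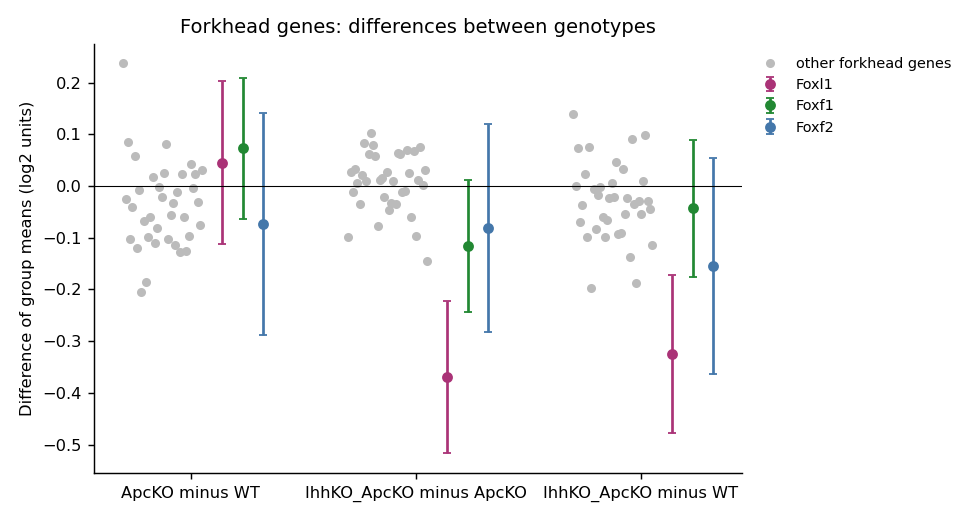
Difference of group means in log2 units (vertical axis) for each of the 39 forkhead genes in 3 comparisons, with 95% intervals for Foxl1, Foxf1 and Foxf2. Foxl1 has the lowest value of the family in both comparisons of the double knockout, at -0.37 and -0.32.

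Whether Foxl1 moved differently from its relatives was tested by the log2 difference of 2 members on the same array, which cancels a shift that both share on that array. Foxl1 minus Foxf1 had a mean of -2.38 ± 0.14 for ApcKO (SD, n = 8) and of -2.64 ± 0.13 for IhhKO_ApcKO (SD, n = 9), a change of -0.25 (exact two-sided permutation p = 0.0033, 0.0099 adjusted over the 9 such comparisons). Below the ApcKO mean lay 8 of 9 arrays. Against WT the change was -0.28 (exact permutation p = 0.0014, adjusted 0.0063), with 8 of 9 double-knockout arrays below every WT array.

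Foxl1 minus Foxf2 changed by -0.29 against ApcKO (exact permutation p = 0.00033, adjusted 0.0030, 9 of 9 arrays below the ApcKO mean). Against WT it was -0.17 (exact permutation p = 0.22, adjusted 0.48), where the WT spread of this difference was 0.37 (SD, n = 7) against 0.11 (SD, n = 9) in the double knockout. Foxf1 minus Foxf2 did not pass in any of the 3 contrasts (adjusted exact permutation p from 0.48 to 0.70). The 3 calls held in every single-array omission, with adjusted exact permutation p up to 0.020, and without B9 the changes were -0.269, -0.297 and -0.294. Omission was the only alternative run for these differences, so the code letter was not tested on them. In the limma fit with the letter as a block, Foxl1 was at -0.14 and Foxf1 at -0.161 against WT. Against ApcKO that fit had Foxl1 at -0.20, Foxf1 at -0.0915 and Foxf2 at 0.0623. The pairs were compared with the lower Foxl1 values already known.

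**Figure D3:**
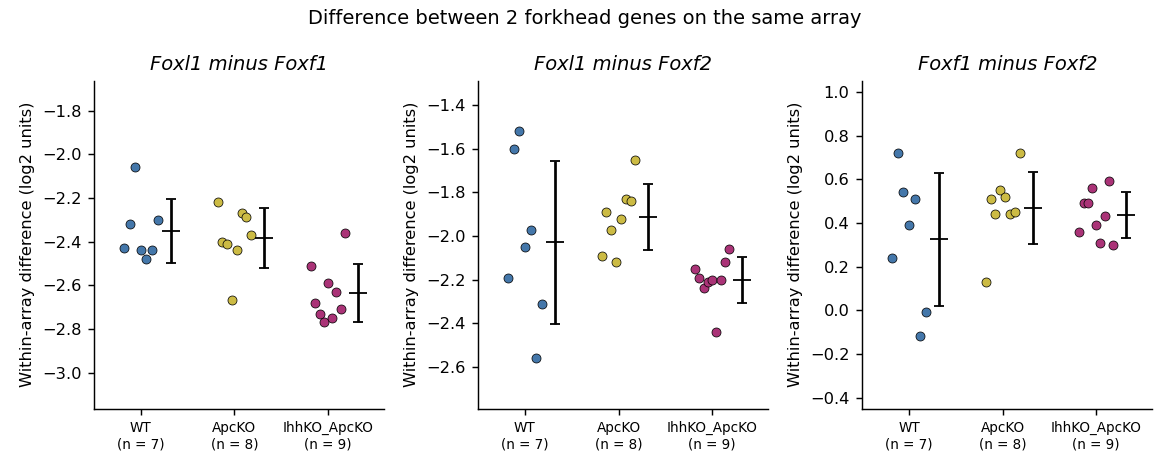
Within-array log2 difference (vertical axis) of 2 members on each array (points) by genotype, with mean and SD. Foxl1 minus Foxf1 and Foxl1 minus Foxf2 are lower in IhhKO_ApcKO than in ApcKO, by 0.25 and 0.29 in the mean, and Foxf1 minus Foxf2 overlaps.

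The wider forkhead family moved little. For IhhKO_ApcKO minus ApcKO, 16 of 39 were lower and 23 higher, with a median of 0.0093 beside 0.011 over all genes, 0 past the threshold of limma and 1, Foxl1, at an unadjusted p under 0.05 (4.95% of all genes). Against WT 28 were lower and 11 higher (median -0.035, all genes -0.011), 0 passed, and 2 had an unadjusted p under 0.05 (7.63% of all genes), Foxl1 and Foxo6, a FoxO factor, at -0.19. For ApcKO minus WT the values ran from -0.21 to 0.24, 0 passed, and 2 were under that unadjusted level, as were 4.41% of all genes. Against the mean of both, 1 passed, Foxl1, beside 0.227% of all genes. There 2 were under the unadjusted level, as were 7.01% of all genes.

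The genes beside the members were read in chromosomal order. Fendrr had lowest, median and highest values of 9.19, 9.46 and 9.71 in WT, 9.18, 9.36 and 9.58 in ApcKO, and 8.78, 9.13 and 9.39 in IhhKO_ApcKO. Its double-knockout arrays tended to the low end, 5 of 9 below every ApcKO array and 5 of 9 below every WT array. How many of all genes reach these counts was not taken. Fendrr, which takes part in mouse mesoderm development, did not pass: the log2 difference was -0.23 against ApcKO (SE 0.081, adjusted p = 0.695 with limma) and -0.32 against WT (SE 0.084, adjusted p = 0.181).

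Between Foxf1 and Foxl1, Foxc2, a factor of lymphatic and vessel development, was at 0.020 (SE 0.082) and Mthfsd at 0.013 (SE 0.042) in IhhKO_ApcKO minus ApcKO. On chromosome 13 Foxq1 was at 0.076 (SE 0.086) and Foxc1 at -0.034 (SE 0.091). Foxc1 and Foxc2 were dim, with means of 4.50 and 5.22. None of the 4 passed with limma.

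**Figure D4:**
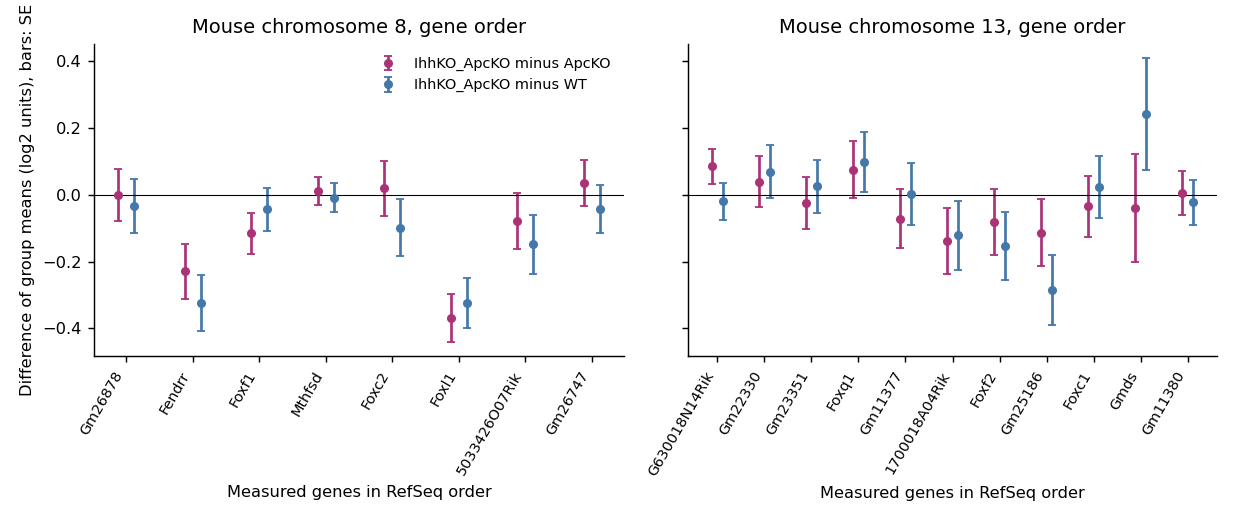
Difference of group means in log2 units with SE (vertical axis) for the measured genes around Foxf1 and Foxl1 (chromosome 8) and around Foxf2 (chromosome 13), in gene order without distances. Foxl1 is at -0.37 and -0.32 and Fendrr at -0.23 and -0.32, and Foxc2 and Mthfsd between Foxf1 and Foxl1 lie nearer to 0.

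The Hedgehog targets serve as a yardstick. Of the 4 measured of 5 listed, 3 passed in IhhKO_ApcKO minus ApcKO, beside 0.0454% of all genes. Gli1, the transcription factor, fell by 1.31 (SE 0.13), the receptor Ptch1 fell by 1.32 (SE 0.18) and the Hedgehog-binding Hhip fell by 1.39 (SE 0.21). Bmp4, a ligand that Foxf and Foxl1 factors influence in mouse gut, was at -0.010 (SE 0.12). Bmp4 also stands in both lists of fibroblast genes. The median of the 4 was -1.31, beside 0.011 over all genes.

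On B9 the Foxl1 value of 6.53 was the second highest of the 9, behind C9 with 6.58, where Gli1 was 6.76. Foxf1 and Foxf2 on B9 were 9.04 and 8.68, within the range of their group.

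**Figure D5:**
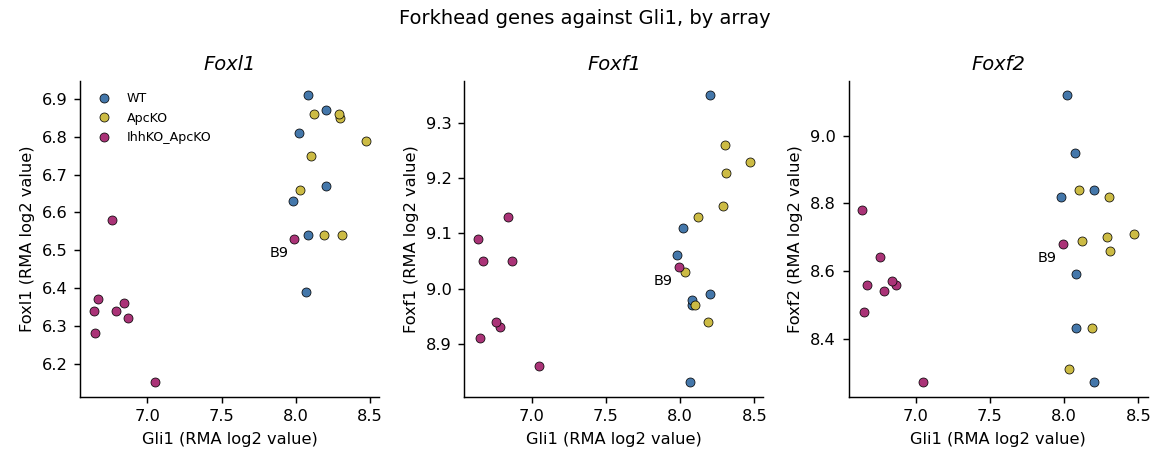
Foxl1, Foxf1 and Foxf2 (vertical axes, RMA log2 value) against Gli1 (horizontal axes, RMA log2 value) on each of the 24 arrays, coloured by genotype. WT (7.98 to 8.20) and ApcKO (8.03 to 8.47) overlap along Gli1, 8 of 9 double-knockout arrays lie at 6.64 to 7.05, and B9 lies at 7.99.

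Because most double-knockout arrays stood apart in Gli1, correlations were taken within each genotype, 18 in all over 3 pairs of members and each member with Gli1. None passed after adjustment (lowest adjusted exact permutation p = 0.27 for Pearson's r and 0.45 for Spearman's rho). Foxl1 and Gli1 had r = 0.24 in WT, 0.14 in ApcKO and 0.34 in IhhKO_ApcKO, with rho of 0.39, 0.024 and 0.033 (exact permutation p from 0.35 to 0.98). Without the 2 arrays farthest in Gli1, r was -0.073, -0.11 and 0.086.

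The highest r with an unadjusted exact permutation p under 0.05 was that of Foxf1 with Gli1 in ApcKO (r = 0.73, p = 0.044; rho = 0.76, p = 0.037), and it was 0.72 without the 2 farthest arrays. Foxf1 and Foxf2 had r = 0.68 in IhhKO_ApcKO (exact permutation p = 0.032, and rho = 0.68, p = 0.050). This r dropped to 0.25 without the 2 arrays farthest in Foxf1 and so rests on them. Foxf2 and Foxl1 in the same group had r = 0.68 (exact permutation p = 0.045, and rho = 0.62, p = 0.086). That r was 0.91 without the 2 arrays farthest in Foxf2, which are a different pair of arrays.

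The genes most like each member were sought among 11480 other protein-coding genes at or above the median signal, by Pearson's r over the 24 arrays, which share genotype and array quality. For Foxl1 these were Myocd, the coactivator of smooth muscle genes (0.77), Gli1 (0.76), the phospholipid transfer protein Pltp (0.74), the retinol carrier Rbp4 (0.73) and Ptch1 (0.73). The median r over these genes was -0.032. These genes share low values in the double knockout: Myocd was at -0.58, Pltp at -0.54 and Rbp4 at -0.67 against ApcKO.

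With the genotype means taken off, the list for Foxl1 changed to the small GTPase Ralb (0.76), Gm13889, the cell cycle inhibitor Cdkn2d, Adnp2 and the kinetochore gene Mis12 (0.65). Gli1 was then at 0.22, rank 1275, and Ptch1 at 0.20. Both had been among the 5 most alike before the genotype means were taken off. B9, with Gli1 and Ptch1 above all other arrays of its group, was kept here, and no r was taken without it. Foxf1 was at 0.51 with Foxl1 in this measure, rank 59.

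For Foxf1 the most alike over 24 arrays were the hypoxia factor Epas1 (0.73), Tgfb1i1, a focal adhesion protein, Aldh2, Exoc2 and Cav2, and with genotype means taken off Gm13889 (0.77), Tanc1, Arhgap23, Epas1 and Irf8. For Foxf2 they were Septin4 (0.75), Otulinl, Spata6, Rgs10 and Tcf21, a mesenchymal transcription factor, and then Otulinl (0.74), Septin4, Pdlim3, Pde5a and Adgrl3. Epas1 stayed with Foxf1 by both measures, as did Septin4 and Otulinl with Foxf2.

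Genes of the Foxl1-positive subepithelial fibroblast were listed to see whether they moved along with Foxl1. Pdgfra, which is also a listed fibroblast marker, had no named cluster and was not measured. Of 18 measured of 19, 14 were lower and 4 higher in IhhKO_ApcKO minus ApcKO (median -0.090, all genes 0.011), and 0 passed with limma. At an unadjusted p under 0.05 were 5, of which 4 were lower and 1 higher, beside 4.95% of all genes. The smallest p belonged to the growth factor Nrg1 at 0.69 (SE 0.16, adjusted p = 0.167 with limma) and the protease Adamdec1 at -0.62 (SE 0.17, adjusted p = 0.278). These 2 differ in sign. Most of the list was lower, and Nrg1 was the 1 higher gene at that unadjusted level.

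Against WT 11 of the 18 were lower and 7 higher. At an unadjusted p under 0.05 were 3 lower and 2 higher, beside 7.63% of all genes. Nrg1 rose by 0.90 (SE 0.17, adjusted p = 0.0338 with limma) and was the 1 listed gene that passed, beside 0.0811% of all genes. For Nrg1 all 9 double-knockout arrays lay above the WT mean, a count whose share over all genes was not taken. Against the mean of WT and ApcKO Nrg1 also passed (0.80, SE 0.14, adjusted p = 0.0117 with limma), as did 0.227% of all genes. For ApcKO minus WT 12 were higher and 6 lower (median 0.042), and 0 passed with limma, with 0 at an unadjusted p under 0.05. The smallest p there were those of the receptor Epha4 at 0.14 (SE 0.085) and the transcription factor Sox6 at 0.26 (SE 0.18).

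Genes linked to Foxf1 and Foxf2 in mesenchyme gave a like picture, but the lists overlap. Bmp4 and Wnt5a are also in the list above, Myh11 is also a listed smooth muscle marker, and Col1a1 and Pdgfrb are also listed fibroblast markers. The counts are therefore not separate evidence. Of 16, 12 were lower and 4 higher in IhhKO_ApcKO minus ApcKO (median -0.073), and 0 passed with limma. At an unadjusted p under 0.05 were 6, of which 5 were lower and 1 higher, beside 4.95% of all genes. Myocd was at -0.58 (SE 0.12, adjusted p = 0.0617 with limma) and smooth muscle actin, Acta2, at -0.56 (SE 0.14, adjusted p = 0.233). For each, 8 of 9 arrays lay below every ApcKO array, and 0.123% of all genes had at least 8. Sfrp1, the Wnt inhibitor tied to Foxf2, was at 0.30 (SE 0.10).

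Against WT 10 of the 16 were lower and 6 higher (median -0.033), and 0 passed with limma. At an unadjusted p under 0.05 were 3, of which 2 were lower and 1 higher, beside 7.63% of all genes. Myocd was at -0.48 (SE 0.12) and Sfrp1 at 0.39 (SE 0.11). Against the mean of both, Myocd fell by 0.53 (SE 0.10, adjusted p = 0.0187 with limma) and was the 1 listed gene that passed, beside 0.227% of all genes. For ApcKO minus WT 13 were higher and 3 lower (median 0.035), and 0 passed with limma. At an unadjusted p under 0.05 were 2, beside 4.41% of all genes. The 2 were Sfrp2, a secreted Wnt modulator, at 0.19 (SE 0.073) and the protease Adamts12 at -0.17 (SE 0.073).

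Of the sort markers, Pdpn lay between 10.70 and 11.08 on all arrays. Of 9 measured fibroblast markers, 7 were lower and 2 higher in IhhKO_ApcKO minus ApcKO (median -0.066, 0 at an unadjusted p under 0.05). The same counts held against WT (median -0.13, 2 under that level, beside 7.63% of all genes), and 0 passed with limma in either. The mean of the 9 was 10.57 in WT, 10.53 in ApcKO and 10.48 in IhhKO_ApcKO.

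Ptprc, which encodes CD45, lay between 2.82 and 3.21, close to the antigenomic background. Not all leukocyte markers were that dim: the lysosomal Cd68 lay between 8.32 and 9.71, and Tyrobp and Lyz2 reached 6.65 and 6.82 in IhhKO_ApcKO. Of 8, 6 were higher against ApcKO and 7 against WT, and 0 passed with limma, with 0 at an unadjusted p under 0.05. Of 7 blood endothelial markers, whose mean ran from 5.30 to 6.26, Pecam1 (CD31) ran from 4.99 to 6.51. Of these 7, 5 were higher and 2 lower against ApcKO (median 0.038), and 4 were higher and 3 lower against WT (median 0.073). Against the lean of the list, the angiopoietin receptor Tek was at -0.39 against ApcKO and -0.49 against WT. Against the mean of both Tek fell by 0.44 (SE 0.095, adjusted p = 0.0483 with limma) and was the 1 listed gene that passed, beside 0.227% of all genes.

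Epcam ran from 4.73 to 8.11, and epithelial transcripts were present although the sort was against Epcam, the mean of 16 markers running from 5.55 to 8.40 per array. Of the 16, 15 were lower in IhhKO_ApcKO minus ApcKO (median -0.26), 16 were higher in ApcKO minus WT (median 0.48) and 12 were higher in IhhKO_ApcKO minus WT (median 0.30). In these 3 contrasts 0 passed with limma and 0 had an unadjusted p under 0.05. With this mean as a covariate the Foxl1 difference against ApcKO was -0.375 (adjusted p = 0.0552 with limma).

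Of 6 smooth muscle markers, all had lower means in IhhKO_ApcKO than in ApcKO (median -0.28), from -0.40 to -0.028 for Smtn. Of these markers 0 passed with limma and 5 had an unadjusted p under 0.05 (4.95% of all genes). Their part in the Foxl1 result was not tested beyond the covariate fit given here. Their mean per array ran from 7.41 to 7.95 in WT, 7.47 to 7.81 in ApcKO and 7.03 to 7.69 in IhhKO_ApcKO. With it as a covariate the Foxl1 difference was -0.32 against ApcKO (adjusted p = 0.558 with limma) and -0.30 against the mean of both (adjusted p = 0.279), and that fit called 1 gene in the ApcKO contrast in place of 14.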

How the data were processed

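RNA of sorted colon fibroblasts was measured on 24 GeneChip Mouse Transcriptome arrays. The authors deposited log2 values, made with RMA per the submitters' processing notes. RMA as a method corrects background, equalizes array distributions and summarizes probes per cluster, which can damp shifts common to most genes. The RMA software and the build were not given in the sources used here. Precision is limited by how many arrays there are.

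Of 72688 probe sets, 6732 controls were left out. Of 65956 clusters, 31379 had 1 gene by symbol or Entrez identifier, 1371 had several and were not named, and 33206 had no name here. The brightest cluster stood for each of 30819 genes, 19237 of them protein-coding. No filter on dim genes was applied. Array medians lay between 4.96 and 5.14.

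All genes were fitted with limma 3.58.1 in R 4.3.3 (lmFit, eBayes, 1 mean per genotype). Passing means p under 0.05 after Benjamini-Hochberg adjustment over all 30819 genes. The script was tested on simulated data. Within-array differences were tested by exact permutation over arrays. Genotypes came from the sample titles, which do not tie the digits of the codes to litters or batches.

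The members, lists and tests were chosen with earlier results of these data known. Lists were counted whole. Named were members that passed or, with none, the 2 of smallest p, the 5 genes most correlated with each member, and forkhead genes that were brightest, beside a member or at an unadjusted p under 0.01. Foxo6, Sfrp1 where it was not among the 2, Smtn, Tek and the other cell type markers were named after their values were seen. Alternatives were median centring, a filter on dim genes, protein-coding genes, trend and robust fits, array weights, the mean of clusters, the contrast's arrays alone, the code letter, 2 covariates, leaving out each array and, added after seeing the data, the digit of the code as a block.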

Additional observations from a re-analysis of the deposited data

How the results depend on the processing

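For IhhKO_ApcKO minus ApcKO, Foxl1 kept its sign in 28 of 28 alternatives. It passed with dim genes left out or protein-coding genes only (-0.369 in both), with trend and robust fitting (-0.369), with the arrays of both genotypes alone (-0.369), with array weights (-0.398) and without B1, B3, B9 or C9, the range over all 17 omissions being -0.397 to -0.343. The adjusted p was 0.029, 0.0307, 0.0475, 0.0431 and 0.0049 in that order. Against both Ihh-intact groups its call was lost with the code letter as a block (-0.171) and with the smooth muscle mean as a covariate (-0.304). Foxl1 in ApcKO minus WT ran from -0.00412 to 0.0812 over omissions.

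Signs of values that had not passed turned as follows. With the code letter as a block, Foxf1 in ApcKO minus WT was -0.0696, and Foxf2 was 0.126 in ApcKO minus WT, 0.0623 in IhhKO_ApcKO minus ApcKO, 0.188 in IhhKO_ApcKO minus WT and 0.125 against both groups. With the smooth muscle covariate, Foxf2 was 0.0297 against ApcKO and Foxf1 0.0184 against WT. Over omissions Foxf1 in IhhKO_ApcKO minus WT ran from -0.0788 to 0.00791, Foxl1 minus Foxf1 in ApcKO minus WT from -0.0503 to 0.02, and Foxf1 minus Foxf2 in IhhKO_ApcKO minus ApcKO from -0.0828 to 0.00152. The cause was not tested.

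The number of genes passing was 0, 14 and 25 for ApcKO against WT and for the double knockout against ApcKO and against WT. It was 113, 53 and 84 with the letter as a block. In the last 2 contrasts it was 8 and 16 with median centring, 65 and 45 with array weights, 1 and 6 with the smooth muscle covariate, and 8 to 41 and 12 to 67 over omissions, the highest without B9 in both. Against ApcKO it moved by over 1.5 times also without A9 (25), B4, B5, C1 or C7 (9 each) and C6 (8), and against WT without A1 or C7 (16), A4, A8 or C6 (15), C4 (13) and A5 or A6 (12). It was 23 in IhhKO_ApcKO minus ApcKO with dim genes left out. In IhhKO_ApcKO minus WT it was 39 with protein-coding genes and 7 with the arrays of both genotypes alone. The digits 1 to 5 of the sample codes occur in all 3 genotypes. Of 20 pairs of arrays with the same digit in different genotypes, 12 had a correlation of deviations over 0.1 (lowest -0.060, median 0.13). Of 171 pairs with different digits in different genotypes, 43 were over 0.1 (lowest -0.34, median -0.023), so same-digit pairs leaned higher. The highest value was 0.33 in both sets, and 5 of 24 arrays correlated best with their own digit. The main fit did not take the arrays as paired. What the digit stands for was not tested. With the digit as a replicate block, chosen after seeing the data, 0, 16 and 14 genes passed in the 3 contrasts, and Foxl1 was at -0.359 against ApcKO (adjusted p = 0.106 with limma) and -0.358 against both groups (adjusted p = 0.031). Neither the digit nor the code letter was run as a block for the within-array differences.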
